A study of Mus musculus with 2 samples.

Results

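The heterogeneous nuclear ribonucleoproteins (hnRNPs) are abundant RNA-binding proteins, described here through 10 genes, Hnrnpa0, Hnrnpa1, Hnrnpa2b1, Hnrnpa3, Hnrnpc, Hnrnpd, Hnrnpf, Hnrnph1, Hnrnpk and Hnrnpl. They were taken by name after Ensembl gene identifiers had been matched to mouse symbols, and all 10 were found among the 17646 genes listed. Heart RNA of BALB/c mouse embryos, taken at embryonic day 13.5, was sequenced as 1 library from wild type (WT) and 1 from SRSF10-/- embryos, in which the splicing factor gene Srsf10 was knocked out. The labels do not give the number of embryos behind a library or the cells in which the gene was lost. Unique reads totalled 39.61 M for wild type and 38.89 M for the knockout. Without replicates nothing could be tested, so higher and lower describe these 2 libraries, and the 95% intervals given cover counting error only.

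hnRNPs coat nascent transcripts in the nucleus, where they help to package pre-mRNA, steer the choice of splice sites and accompany mRNA to the cytoplasm. Many act as splicing repressors and are often set against SR proteins, the class to which Srsf10 belongs, which more often favour exon inclusion. The A/B proteins, C, D and L bind RNA through RNA recognition motifs, F and H1 through a variant of that motif that reads runs of G, and K through KH domains that read runs of C. Several hnRNPs also act on the splicing of their own transcripts, and the gene totals used here do not separate splice forms.

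hnRNP genes have given rise to many processed pseudogenes, which are intronless copies made from spliced mRNA, and a read that fits a gene and its copy equally well is not uniquely mapped. For each gene, the percent of its 31-base words that also occur in another annotated gene was computed from the mouse GENCODE M21 transcripts. Over its longest transcript, Hnrnpf shared 70.6% of its words, Hnrnpk 44.2%, Hnrnpa1 30.1%, Hnrnpa3 28.9% and Hnrnpc 21.1%. The other 5 genes shared between 0% (Hnrnpa0) and 6.23% (Hnrnpd). For Hnrnpa1 the transcript used has 3118 bases, whereas its listed length is 1122 bases, equal to its coding length. Within that coding sequence 85.3% of its words were shared. None of the 10 shared a word with another of the 10.

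Hnrnpa1 had 12 annotated copies, counted as genes with at least 20% of their own words in it, and all 12 are pseudogenes. The closest, Gm10052 on chromosome 9, has all 930 of its words in Hnrnpa1. A stretch of 60 coding bases of Hnrnpa1 (chromosome 15) is shown from base 121 of the coding sequence. It is set beside the same stretch of Gm10052 and of Gm5643 on chromosome X. Windows here and below were picked to align with at most 4 differences, so they do not measure likeness over whole copies. Over its full length Gm5643 has 71.3% of its words in Hnrnpa1. Capitals mark bases that differ from the gene, in this and the next sets.
Hnrnpa1: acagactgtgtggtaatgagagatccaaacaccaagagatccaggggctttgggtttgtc
Gm10052: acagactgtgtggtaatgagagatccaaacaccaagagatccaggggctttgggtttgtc
Gm5643: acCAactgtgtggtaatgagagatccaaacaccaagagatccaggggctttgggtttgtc
Gm10052 is identical to Hnrnpa1 over these bases and Gm5643 differs at 2. In the coding sequence of Hnrnpa1 85.3% of words were shared, and outside it none. Hnrnpa3 differed most in this. It shared 97.7% of coding words and 84.4% of those outside, on its transcript with the longest coding sequence, which has 1654 bases against 5150 listed. Hnrnpk shared 85.3% and 8.91%, and Hnrnpc 58.2% and 3.36%. Hnrnpa2b1 and Hnrnpl also shared none outside.

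Hnrnpa3 had the most copies, 32 genes of which 30 are pseudogenes. Its coding bases 241 to 300 (chromosome 2) are shown with Gm5641 on chromosome 3 and Gm6793 on chromosome 8, the copies that hold the largest shares of its words. Gm6793 is annotated as protein-coding.
Hnrnpa3: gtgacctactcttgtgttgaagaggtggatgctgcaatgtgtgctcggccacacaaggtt
Gm5641: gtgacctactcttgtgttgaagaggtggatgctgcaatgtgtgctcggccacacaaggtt
Gm6793: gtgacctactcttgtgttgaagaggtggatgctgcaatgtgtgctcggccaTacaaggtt
Gm5641 had no difference from Hnrnpa3 in this window and Gm6793 had 1. Hnrnpf, whose coding words were shared to 97.7%, is shown over its first 60 coding bases (chromosome 6), with Gm6430 on chromosome 1 and Gm7446 on chromosome 13.
Hnrnpf: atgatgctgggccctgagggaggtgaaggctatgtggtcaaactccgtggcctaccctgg
Gm6430: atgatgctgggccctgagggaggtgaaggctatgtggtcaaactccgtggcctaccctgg
Gm7446: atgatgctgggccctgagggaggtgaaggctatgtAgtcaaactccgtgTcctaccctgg
Hnrnpk is shown over coding bases 541 to 600 (chromosome 13), with Gm7964 on chromosome 7 and Gm4130, also on chromosome 13.
Hnrnpk: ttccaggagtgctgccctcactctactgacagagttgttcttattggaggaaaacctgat
Gm7964: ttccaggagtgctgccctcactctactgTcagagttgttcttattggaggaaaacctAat
Gm4130: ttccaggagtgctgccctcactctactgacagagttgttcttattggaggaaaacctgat
Gm7964 differed from Hnrnpk at 2 bases here and Gm4130 at none. Over their full lengths Gm7964 has 78.7% of its words in Hnrnpk and Gm4130 48.2%. These are reference sequences, whereas the embryos were on a BALB/c background.

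Of these copies 3, named after their values were seen, are listed in the tables: Gm8991 with 8 and 2 reads in the wild-type and knockout libraries, Gm6793 with 21 and 22, and Gm7964 with 3 and 6. With them added, the knockout over wild-type ratio was 0.996 for Hnrnpa3 (0.997 without) and 0.994 for Hnrnpk (0.994 without). The remaining copies, among them all 12 of Hnrnpa1, are listed for neither library, so no reads of theirs could be added. Why they are not listed is not stated.

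The deposited coverage, the percent of the listed gene length touched by reads, was high for all 10 genes and ranged from 90.13% to 99.83%. Hnrnpa1 was covered over 99.82% of its length in wild type and 99.73% in knockout heart, while most of its coding words also occur in pseudogenes. Hnrnpf had 99.72% and 97.63%, the largest difference of the 10. Hnrnpk had the lowest coverage, 91.41% and 90.13%. Hnrnpd followed with 95.65% and 93.91%. Hnrnpa2b1 (98.29% and 99.56%) and Hnrnph1 (98.3% and 99.83%) were covered slightly more in the knockout library, where their levels were also higher. The read length, how a read was judged unique, and whether coverage counts unique reads only are not stated in the labels or headers.

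**Figure D1:**
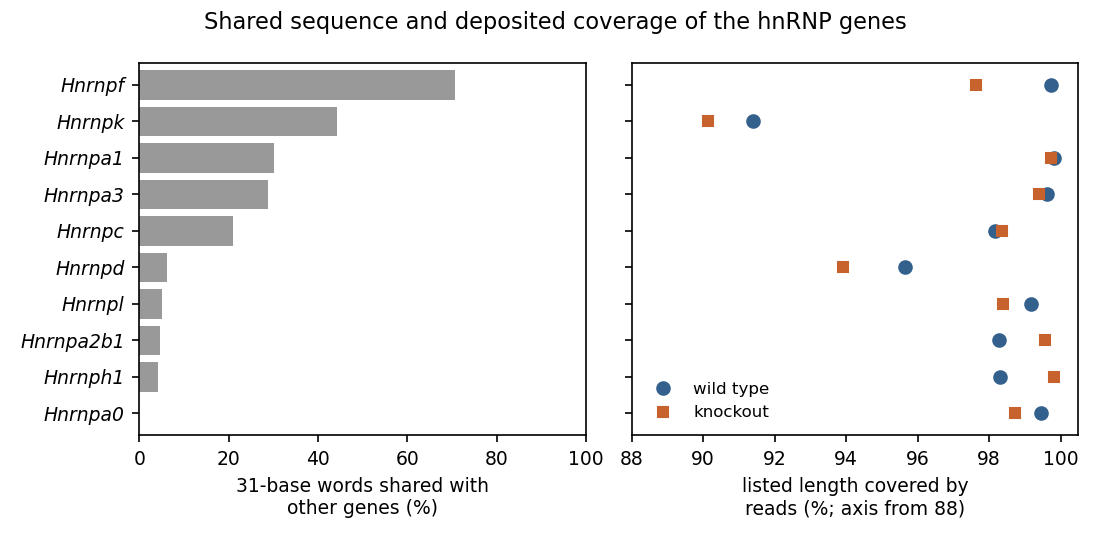
Left, percent of the 31-base words of each gene's longest transcript that occur in another annotated gene. For Hnrnpa1 that transcript has 3118 bases, against a listed length of 1122 bases. Right, percent of the listed gene length covered by reads in the wild-type (circles) and knockout (squares) library, on an axis that starts at 88%. Hnrnpk lies lowest, at 91.41% and 90.13%, and Hnrnpa1 near full coverage in both.

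The sequence before each gene's start was also read. RefSeq windows of 250 bases before each annotated start on GRCm38.p6 were found for all 10, 18 windows in all, with some overlapping windows of the same gene. The letters CCAAT, on either strand, occurred in 13 of the 18 (72.2%) and in 33.8% of 32851 windows of all genes. GGGCGG occurred in 12 (66.7%) against 32.7%, and TATAAA in 0 against 12.4%. Windows of the same gene are not independent. Counted by gene, CCAAT occurred in 9 of the 10, GGGCGG in 7 and TATAAA in 0, and the share by gene was not computed for all genes. The median GC content was 63.8% in these windows and 52.4% in all, and the windows were not matched for it. Hnrnpa1, Hnrnpl and Hnrnpc each held 4 CCAAT matches, whereas Hnrnpd held none. The windows of Hnrnpa1 (chr15:103240147-103240396, plus strand) and Hnrnpl (chr7:28810640-28810889, plus strand) are shown as examples with 4 matches, picked after their values were seen from genes that were lower in the knockout library, with each match in capitals, CCAAT or its complement ATTGG.
Hnrnpa1: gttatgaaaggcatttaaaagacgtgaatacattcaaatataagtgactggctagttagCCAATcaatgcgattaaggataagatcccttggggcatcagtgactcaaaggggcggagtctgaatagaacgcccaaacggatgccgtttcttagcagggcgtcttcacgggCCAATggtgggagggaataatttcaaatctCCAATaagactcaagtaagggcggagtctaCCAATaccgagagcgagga
Hnrnpl: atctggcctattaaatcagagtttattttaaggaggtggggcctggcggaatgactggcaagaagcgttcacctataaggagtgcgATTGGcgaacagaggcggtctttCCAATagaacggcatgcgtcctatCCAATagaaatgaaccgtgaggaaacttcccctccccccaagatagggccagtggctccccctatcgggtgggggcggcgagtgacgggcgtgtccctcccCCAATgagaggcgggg
A match describes the letters only. Hnrnpc, with as many matches, was 1.04-fold lower and is not shown, and Hnrnpa0, which was 1.34-fold lower, held 1 match.

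All 10 genes were well expressed. Levels are given as RPKM, reads per kilobase of listed length and per 1 M library reads, and ranged from 35.3 to 455, against a median of 9.88 RPKM over 12329 measured genes in the wild type (genes with at least 1 RPKM in one library). In the wild-type heart the order was Hnrnpa1, Hnrnpk, Hnrnpa2b1, Hnrnpl, Hnrnpf, Hnrnph1, Hnrnpa3, Hnrnpc, Hnrnpa0 and Hnrnpd. Only Hnrnpl and Hnrnpf, at 158 and 153 RPKM, had overlapping counting intervals among neighbours in that order. In the knockout heart the order was the same except that Hnrnpf (153 RPKM) stood above Hnrnpl (127 RPKM), and no neighbours overlapped.

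**Figure D2:**
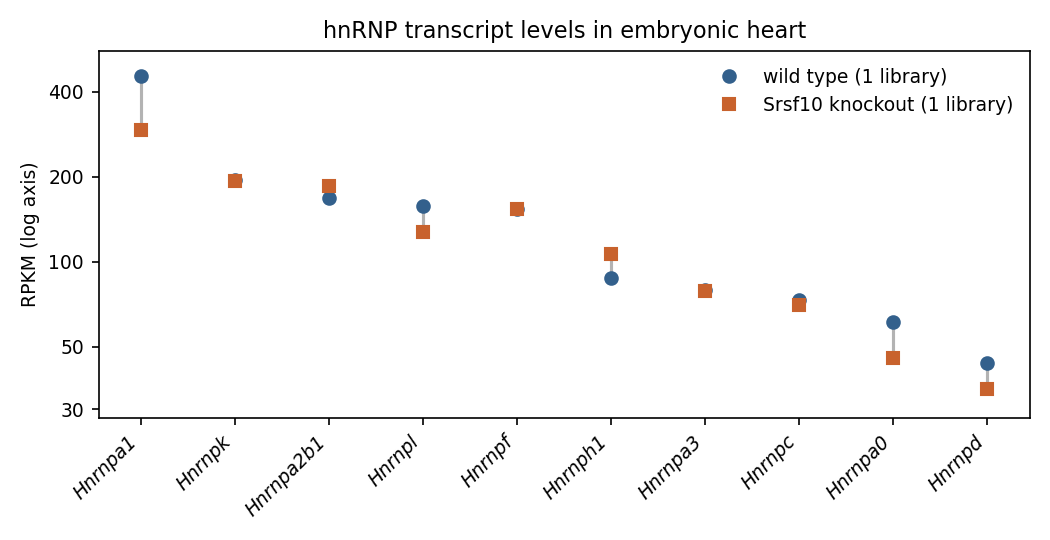
Level of each hnRNP gene in RPKM, on a log axis, in the wild-type library (circles) and the Srsf10 knockout library (squares), ordered by wild-type level. By listed length Hnrnpa1 leads in both libraries, with 455 and 294 RPKM, and Hnrnpd is lowest, with 43.7 and 35.3 RPKM.

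The first place of Hnrnpa1 rests on its listed length. The tables give it 1122 bases, which equals the coding length of its longest annotated transcript, while that transcript is 3118 bases long. Spread over 3118 bases, with each other gene also set to its longest annotated transcript, its wild-type reads would come to 164 per kilobase and per 1 M reads, which places it after Hnrnpk and Hnrnpa2b1, a check added after the data were seen. In the knockout it would come to 106, place 5 of the 10. Over the transcript with the longest coding sequence its places would be 5 and 6. Whether reads outside the listed bases were counted is not given. Read ratios between the libraries do not change with the length used, as the listed length of each of the 10 genes was the same in both tables. Whether they depend on which bases were counted was not tested.

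Between the libraries the hnRNP genes went different ways. Hnrnpa1, Hnrnpa0, Hnrnpl and Hnrnpd were 1.24-fold to 1.55-fold lower in the knockout heart, Hnrnph1 and Hnrnpa2b1 were 1.21-fold and 1.11-fold higher, and Hnrnpk, Hnrnpf, Hnrnpa3 and Hnrnpc lay within 1.05-fold. At least 1.5-fold differences on the log2(RPKM + 1) scale were seen for 1 of the 10, Hnrnpa1, which was lower, where 2.95% of all measured genes passed that size (1.44% lower and 1.52% higher). At a smaller limit, at least 25% higher or 20% lower, the count was 2 lower, Hnrnpa1 and Hnrnpa0, and 0 higher, where 13.9% of genes passed (6.98% lower and 6.95% higher). None passed 2-fold, where 0.543% of genes did. Just short of that smaller limit lay Hnrnpl and Hnrnpd, at 1.24-fold lower each. The median log2 ratio of the 10 was -0.03, beside -0.01 for all measured genes and -0.05 for the 1251 genes with at least 50 RPKM in one library. Of those 1251 genes, 113 were lower and 49 higher at that smaller limit.

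**Figure D3:**
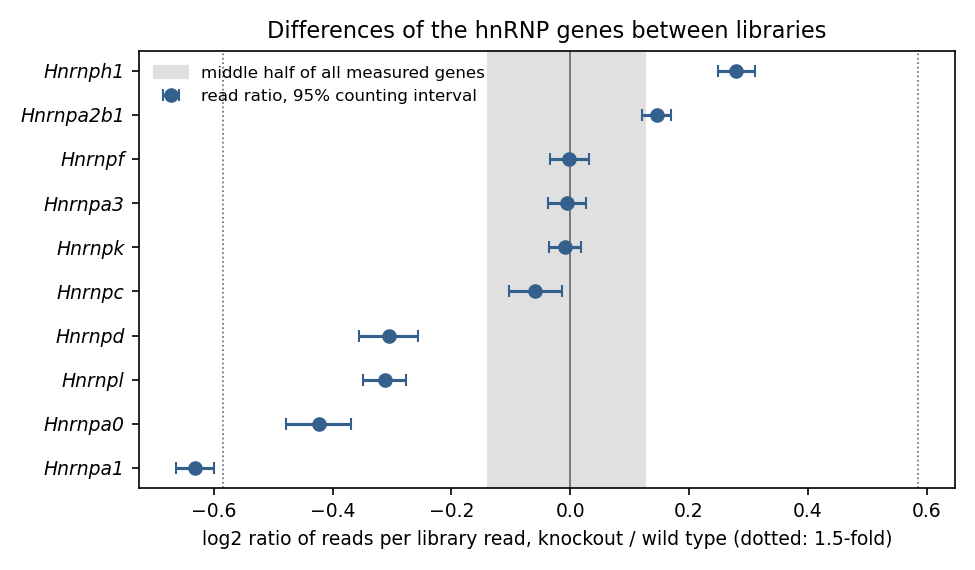
Log2 ratio of reads per library read, knockout over wild type, for each hnRNP gene, with 95% counting intervals; the grey band spans the quartiles of log2(RPKM + 1) ratios over all measured genes, -0.14 to 0.13, and dotted lines mark 1.5-fold. Of the 10, 4 lie left of the band, 4 within it and 2 to its right.

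Of the A/B proteins, Hnrnpa1 differed most. It encodes a shuttling splicing repressor that binds UAG-containing sites. Its level was 455 RPKM (20236 reads) in the wild-type heart and 294 RPKM (12825 reads) in the knockout heart, 1.55-fold lower (1.51 to 1.58). The log2 ratio of RPKM + 1 was -0.63, and 1.09% of all measured genes had a ratio as low or lower. Among 1251 genes with at least 50 RPKM in one library, 2.24% were at least 1.5-fold lower. Of the coding words of Hnrnpa1, 85.3% also occur in other genes. What this contributes to its ratio was not tested.

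Hnrnpa2b1, the close relative of Hnrnpa1, which also serves in RNA transport, went the other way. It had 168 RPKM (27119 reads) in wild-type and 185 RPKM (29445 reads) in knockout heart, 1.106-fold higher (1.088 to 1.124). In RPKM, Hnrnpa1 stood 2.72 times as high as Hnrnpa2b1 in the wild-type library and 1.59 times as high in the knockout library. That ratio was 1.71-fold lower in the knockout (1.67 to 1.76, counting error only), a change that does not depend on length. Which of the pair stood higher did depend on it: over the longest annotated transcripts Hnrnpa1 lay below Hnrnpa2b1, at 164 against 188 reads per kilobase and per 1 M reads in wild-type and 106 against 208 in knockout heart.

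Hnrnpa0, an A/B protein that binds AU-rich elements in mRNA, was also lower. Its level went from 61.1 RPKM (6479 reads) to 45.5 RPKM (4741 reads), 1.34-fold lower (1.29 to 1.39), and 3.88% of measured genes had a ratio as low or lower. None of its words occurs in another annotated gene. Hnrnpa3, a further A/B protein, had 79.1 RPKM and 78.9 RPKM, from 16143 and 15793 reads, with a ratio of 0.997 (0.975 to 1.019). Summed over these 4 genes, A/B reads were 1.09-fold lower in the knockout (1.08 to 1.11).

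Hnrnpc encodes a protein that binds runs of U and forms the tetramers around which pre-mRNA is packed. It had 73.1 RPKM (8236 reads) and 70.2 RPKM (7761 reads), 1.04-fold lower (1.01 to 1.07), inside the quartiles of all genes. Hnrnpd, known as AUF1, binds AU-rich elements and is best known for speeding the decay of such mRNAs. It went from 43.7 RPKM (7478 reads) to 35.3 RPKM (5938 reads), 1.24-fold lower (1.19 to 1.28), with 8.22% of measured genes as low or lower.

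The G-run binders split. Hnrnph1, a splicing regulator that works as repressor or activator by position, had 87.4 RPKM (15839 reads) in wild-type and 106 RPKM (18876 reads) in knockout heart, 1.21-fold higher (1.19 to 1.24). Its log2 ratio of 0.28 was matched or passed by 9.36% of measured genes. Hnrnpf, its relative with the same kind of RNA-binding domain, had 153.4 RPKM and 153.2 RPKM from 15382 and 15082 reads, a ratio of 0.999 (0.977 to 1.02). Of the words of Hnrnpf 70.6% also occur in other genes, and of those of Hnrnph1 4.17%.

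Hnrnpk, the KH-domain protein that binds C-rich RNA and DNA, was level, with 195 RPKM (22949 reads) and 194 RPKM (22390 reads) and a ratio of 0.994 (0.976 to 1.012). Hnrnpl, which binds CA repeats and regulates exon choice from them, was lower. Its level went from 158 RPKM (13636 reads) to 127 RPKM (10779 reads), 1.24-fold lower (1.21 to 1.27), and 7.61% of measured genes had a ratio as low or lower. Under a rescaling to the upper quartile, and under one to reads outside mitochondrial genes, the small ratios of Hnrnpk, Hnrnpf and Hnrnpa3 turned sign, as did those of Hnrnpf and Hnrnpa3 under median-of-ratios scaling, so no direction is given for these 3.

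**Figure D4:**
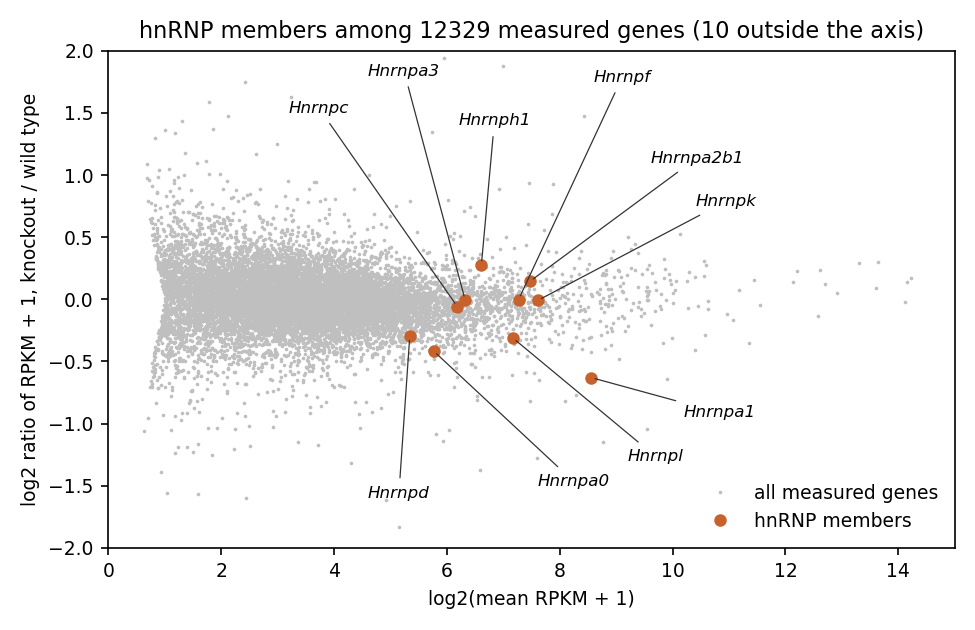
Log2 ratio of RPKM + 1, knockout over wild type, against log2 of mean RPKM + 1 for 12329 measured genes (grey), with the 10 hnRNP genes in orange; 10 genes lie outside the vertical axis. Hnrnpa1, at -0.63, lies lowest of the 10 and Hnrnph1, at 0.28, highest.

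Grouped by shared sequence, the genes read as follows. Of the 5 genes with at least 20% of words shared, Hnrnpa3, Hnrnpc, Hnrnpf and Hnrnpk lay within 1.05-fold and Hnrnpa1 was 1.55-fold lower, with a median log2 ratio of -0.01. The 5 genes with fewer shared words, Hnrnpa0, Hnrnpa2b1, Hnrnpd, Hnrnph1 and Hnrnpl, all lay outside the quartiles of all genes, 3 lower and 2 higher. Their median was -0.30, but their summed read ratio was 1.008 (0.997 to 1.018). For the 5 genes sharing more it was 0.907 (0.898 to 0.916), a sum that includes Hnrnpa1, the only one of them outside 1.05-fold. In coding words alone Hnrnpa2b1 shared 20.8%, which would move it across the limit. What shared sequence contributes to these ratios was not tested.

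As a family the hnRNP genes took a slightly smaller share of the knockout library. Their summed reads were 153497, or 0.387% of wild-type reads, and 143630, or 0.369% of knockout reads, which is 1.049-fold lower (1.042 to 1.057). Without Hnrnpa1 the knockout over wild-type ratio was 0.9999 (0.992 to 1.008), so lower and higher genes among the other 9 cancelled in the sum. Within the summed RPKM of the 10, which for Hnrnpa1 rests on its short listed length, Hnrnpa1 made up 30.9% in wild-type and 22.8% in knockout heart, and Hnrnph1 5.93% and 8.22%. Within the summed reads, which use no length, the shares were 13.2% and 8.93% for Hnrnpa1 and 10.3% and 13.1% for Hnrnph1.

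The wider hnRNP class was measured through 22 other genes, all listed and measured. At 1.5-fold 0 of them differed, where 2.95% of measured genes did. At the smaller limit 2 were lower and 1 higher, where 13.9% of measured genes passed. Below 0 lay 16 of the 22, beside 6386 of all 12329 measured genes and 768 of the 1251 genes with at least 50 RPKM, and the median log2 ratio was -0.08, beside -0.01 for all measured genes and -0.05 for the 1251 genes with at least 50 RPKM. The lowest were Hnrnpul2, a nuclear scaffold-attachment protein of the hnRNP U type (32.9 and 25.8 RPKM, 1.28-fold lower, 1.23 to 1.32), and Rbmx, also called hnRNP G, on the X chromosome (41.5 and 32.7 RPKM, 1.27-fold lower, 1.22 to 1.33). The highest was Pcbp3, a poly(C)-binding protein, at a low level of 3.46 and 4.82 RPKM, 1.39-fold higher (1.21 to 1.60). Hnrnpab, a relative of Hnrnpd and the most abundant of the 22, was level at 181 and 180 RPKM with a ratio of 0.997 (0.976 to 1.018).

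Close relatives of the 10 are named here after their values were seen. Hnrnpdl, Hnrnph2 and Hnrnpll lay on the same side as their counterparts, and the interval of Hnrnph3 spanned 1. Hnrnpdl, the relative of Hnrnpd, was 1.20-fold lower (1.16 to 1.24), from 74.9 to 62.5 RPKM. Hnrnph2, the X-linked relative of Hnrnph1, was 1.13-fold higher (1.08 to 1.18), from 24.4 to 27.6 RPKM, whereas Hnrnph3, of the same group, had a ratio of 0.948 (0.883 to 1.018). Hnrnpll, the relative of Hnrnpl, was 1.08-fold lower (1.03 to 1.13), from 26.7 to 24.8 RPKM. The KH-domain genes Pcbp1 and Pcbp2 went apart, 1.11-fold lower and 1.06-fold higher, and Pcbp2, which shares 58.1% of its words with other genes, had only 57.85% and 51.32% of its length covered.

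**Figure D5:**
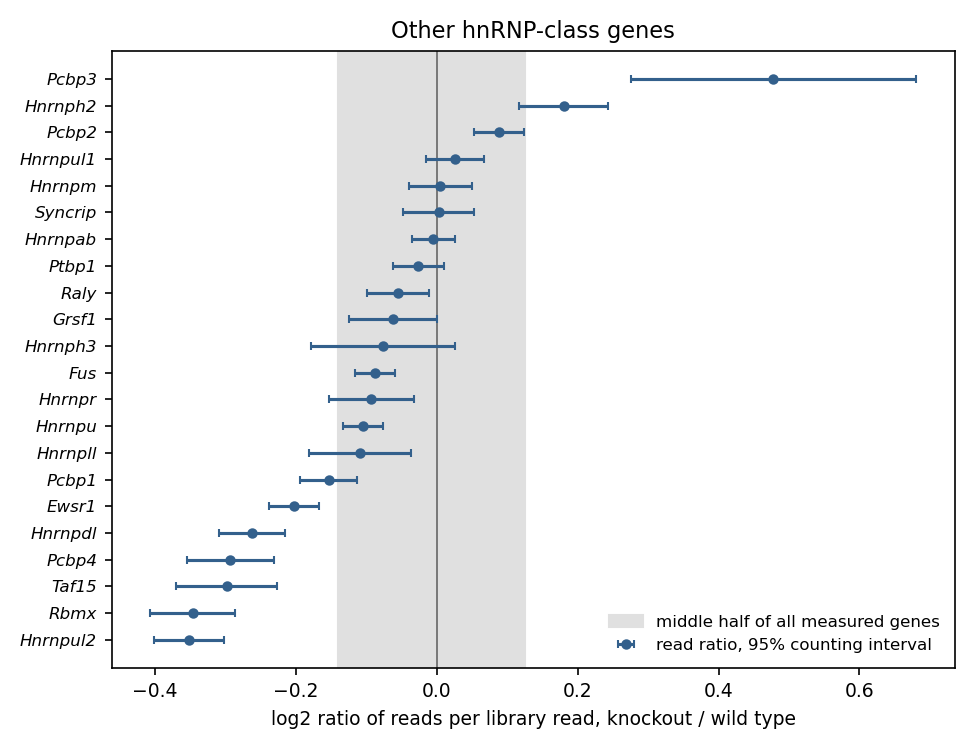
Log2 ratio of reads per library read, knockout over wild type, for 22 other hnRNP-class genes, with 95% counting intervals; the grey band spans the quartiles of log2(RPKM + 1) ratios over all measured genes. Hnrnpul2 and Rbmx lie lowest and Pcbp3, which has few reads, highest.

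Some facts of the libraries touch these values. Srsf10 itself had 35.3 RPKM in wild-type and 1.45 RPKM in knockout heart, 24.3-fold lower (21.2 to 27.99). Reads from 4 Y-linked genes numbered 2943 for wild type and 7 for the knockout, so sex and genotype cannot be told apart. Hnrnph2 and Rbmx are X-linked. Cardiomyocyte markers were high in both, with a summed level of 16726 and 15470 RPKM over 10 genes, 8 of them lower. Markers of cycling cells summed to 464 and 462 RPKM over 8 genes, 4 higher and 4 lower. Mesenchyme markers were lower in 7 of 7, with sums of 929 and 633 RPKM. Their differences were uneven, from 1.05-fold lower for Pdgfra and 1.13-fold for Postn to 1.73-fold for Eln. Macrophage markers had a higher RPKM in 6 of 6 measured, with sums of 37.1 and 52.7 RPKM. Of these Aif1 was level, at 56 reads in wild-type and 55 in knockout heart. Skeletal muscle markers were higher in 4 of 5 measured (139 and 191 RPKM), with the defining gene Myod1 at 18 and 2 reads. Tnni2 went from 24.4 to 96.8 RPKM, by more than the sum did, and Ckm from 102 to 75.1 RPKM. Erythroid markers were lower in 3 of 5 measured (2987 and 2786 RPKM), and endothelial markers in 3 of 6 (272 and 261 RPKM). Most of the erythroid sum came from the globin genes Hbb-y (2077 and 1911 RPKM) and Hba-x (896 and 862 RPKM). The erythroid markers below 1 RPKM had more reads in the knockout library: Klf1 32 and 48, Gata1 24 and 58, and Rhag 45 and 76. Hepatocyte markers were lower in 2 of 3 measured (4.74 and 2.13 RPKM), with albumin (Alb) at 88 and 0 reads. The part these cell types have in the hnRNP ratios was not tested, and in bulk RNA fewer cells of a type and less RNA per cell cannot be told apart.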

How the data were processed

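Total RNA of embryonic hearts was sequenced, 1 library per genotype, and groups come from the genotype in the labels. The deposited table gives a count of unique reads for each Ensembl gene, per the file headers, and these sum to the totals the headers state. The authors' deposited RPKM divide them by listed length and total, and recomputing gave the same values. The deposited coverage percent reaches slightly above 100 for 1 gene in the knockout table and was used as given. Per the submitters' processing notes, Bowtie 0.12.2 and the mm9 build were used. No label or header states which annotation was used, how reads were filtered or whether strand was considered.

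Although the tables hold counts, no test was possible with single libraries. Log2 ratios used RPKM + 1 for genes with at least 1 RPKM in one library. Folds with intervals are ratios of reads per library read with exact conditional binomial (Clopper-Pearson) 95% intervals, and those of levels are exact Poisson intervals. Without molecular identifiers reads are not independent molecules. Genes missing in one table counted as 0 there. The ratio calculation was tested on simulated data. Shared words were counted on both strands between GENCODE M21 transcripts, using the longest transcript of each described gene. Windows are the first 60-base coding stretch, in steps of 60, where each copy aligns without gaps with at most 4 differences and at least 1 copy differs; 2 copies were shown per gene, by share of the gene's words, and chromosome 18 was left out. Symbols were matched for 17196 of 17646 genes. Calculations used Python 3.11.15, pandas 2.3.3 and scipy 1.17.1.

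Genes named are the 10 members and, from each other list, the most abundant and the 3 with the largest absolute log2 ratio, with Srsf10. Other names (relatives of the members, listed copies, Alb, Myod1, Tnni2, Ckm, Aif1, Pdgfra, Postn, Eln, Hbb-y, Hba-x, Klf1, Gata1, Rhag and the unmatched Prmt1) were chosen after values were seen. With 2 libraries no gene could be named for a like pattern. The members and lists were chosen with earlier results of these data known. Alternatives were pseudocounts of 0.1 and 5, other filters, fold limits and scalings, and other choices of copies.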

Additional observations from a re-analysis of the deposited data

How the results depend on the processing

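Pseudocounts and rescalings left each of the 10 hnRNP ratios within its counting interval, and the count of genes at least 1.5-fold different stayed at 1, Hnrnpa1. The log2 ratio of Hnrnpa1 ranged from -0.63 to -0.61. A limit of 25% higher or 20% lower gave 2 genes and the 2-fold limit 0. The median log2 ratio of the members became -0.30 when the 5 genes sharing at least 20% of their words were left out. The summed read ratio of the genes then left was 1.008 (0.997 to 1.018). The summed hnRNP read ratio of 0.953 was 0.969 with upper quartile scaling, 0.965 with reads outside mitochondrial genes and 0.9999 without Hnrnpa1. With copies included, the sum stayed at 0.953, and was 0.969 and 0.965 under the same scalings. It was 0.978 when every gene with any shared word was added. That set is far wider than the copies, as 3503 annotated genes share a word with Hnrnpd. The median of the handling list was 0.24 at 50 RPKM, where only Nxf1 is left, and its main value of -0.02 became 0.001 with upper quartile scaling. The rescaled sums are the unscaled ratio times the scaling factor, 1.017 for the upper quartile and 1.013 for reads outside mitochondrial genes. The sum without Hnrnpa1 only leaves out its reads. No cause of the other shifts was tested. With the longest annotated transcript as length, chosen after the data were seen, Hnrnpa1 took place 3 by wild-type level and 5 by knockout level instead of 1. Depth does not limit these genes, which had 4741 to 29445 reads each. The lack of replicates does, as does sex, which cannot be told apart from genotype. The part of sequence shared with other genes was not tested. No paired analysis was possible because each genotype has 1 library.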

Other observations

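Genes that act on hnRNPs, and other abundant nuclear RNA-binding proteins, lay close to all measured genes. Of 13 genes for nuclear transport, arginine methylation and transcription-pausing partners of hnRNPs, 12 were listed, 6 lay above 0 and 6 below, and 0 were at least 25% higher or 20% lower, as 13.9% of measured genes were. Their median log2 ratio was -0.02. The mRNA export receptor Nxf1, the most abundant of them, was 1.19-fold higher (1.14 to 1.23), from 58.9 to 69.8 RPKM. Mepce, the capping enzyme of 7SK RNA, was 1.16-fold lower (1.09 to 1.24), from 16.1 to 13.9 RPKM. The arginine methyltransferase Prmt5 was 1.14-fold lower (1.09 to 1.19), from 42.7 to 37.5 RPKM. Prmt1 was not matched to a listed gene.

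Of 18 other nuclear RNA-binding proteins, 7 lay above 0 and 11 below, with a median log2 ratio of -0.04, and 0 passed that limit. Ybx1, a cold-shock domain protein, had the top level of the list, 464 RPKM in wild-type and 491 RPKM in knockout heart, 1.058-fold higher (1.041 to 1.075). Khdrbs1, the signalling-linked splicing regulator Sam68, was 1.18-fold lower (1.14 to 1.21). The RNA helicase Dhx9 was 1.17-fold lower (1.13 to 1.20) and the nuclear matrix protein gene Matr3 1.16-fold lower (1.13 to 1.19). These 3 differed less than Hnrnpa1, Hnrnpa0, Hnrnpl and Hnrnpd did.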
